A study of Collinsia rattanii with 18 samples.

Results

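Of 46127 genes in the count table, 230 (0.499%) had at least 10 raw read counts in each of the 9 libraries of C. rattanii and 0 counts in each of the 9 libraries of C. linearis. They were chosen by these counts in both species and are called rattanii-only genes, a name for where reads were counted and not for where the genes exist. RNA-seq was performed on whole floral buds, before anthesis, of the highly selfing C. rattanii and of its outcrossing sister species C. linearis. In each species 3 untreated plants were sampled at an early (B1), a middle (B2) and a late (B3) bud stage, which gave 6 groups of 3 libraries with 1 library per plant in each group. A library held RNA of 2 to 4 buds of 1 plant. The plants of a species came from 2 wild populations, and neither the labels nor the methods say which plant came from which, nor how old the plants were. Titles and genotypes gave the species of each library, because the organism field carries C. rattanii throughout.

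Collinsia are annual herbs in which selfing species have evolved repeatedly from outcrossing ones. Selfers typically carry smaller flowers and can set seed without a visit by an insect. Bud development covers the growth of petals, stamens and style and the maturation of pollen, so buds hold many tissues at once, and a lower count per library can come from fewer cells or from less RNA per cell, which cannot be told apart. Sister species can differ in gene content, in whether a shared gene is transcribed, and in how far the sequence of a shared gene has diverged. Reads of both species were aligned to the C. rattanii genome, and the gene models were built with RNA of 6 of the 9 C. rattanii bud samples. A gene missing from C. linearis, a gene silent in its buds and a gene whose C. linearis reads did not align to the C. rattanii model all give 0 counts, and cannot be told apart in these data. The gene identifiers come without names, functions or positions, and none is given to the rattanii-only genes.

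Total counts per library ranged between 24713277 and 34589916 in C. rattanii and between 23831351 and 41451418 in C. linearis. The only markers named in the study's text for a tissue in the buds were RCORA09826 and RCORA03278, counterparts of the anther genes LAP5 and LAP6 of Arabidopsis. Both had reads in every library, 79 to 319 and 294 to 812 counts in C. rattanii, against 43 to 17435 and 180 to 30885 counts in C. linearis. Of the 9 genes that the study names in its text, 0 were rattanii-only genes.

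The library labelled C. rattanii B3 plant 3 stood apart from the other 8 of its species. In it, 160 genes were at 0 that had at least 10 counts in each of the other 8 C. rattanii libraries, the B1 and B2 libraries of plant 3 included. In each of those 8 libraries, the same count lay between 0 and 11 genes. In the opposite direction, 145 genes had at least 10 counts in B3 plant 3 and 0 in the other 8, against 0 to 9 genes in each other C. rattanii library. Taken pair by pair, 138 to 187 genes were at 0 in one library and at 50 counts or more in the other when B3 plant 3 was set against the B1 and B2 libraries with the same plant label, and at most 59 genes were when any 2 of the other 8 libraries were compared. The presence and absence of reads in this library thus did not follow its plant label, and the cause was not tested. C. linearis B2 plant 1, with 40 genes present and 32 at 0 there only, stood apart in both directions, to a smaller extent. C. linearis B2 plant 3 had 110 genes present there only but 0 genes at 0 there only. Pair by pair, C. linearis libraries differed widely, with 297 genes at 0 in B3 plant 2 and at 50 counts or more in B1 plant 2. The overall stage and plant tests in edgeR, and the log2 changes or p-values of genes named for B3 or plant 3, are therefore given with and without B3 plant 3.

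**Figure D1:**
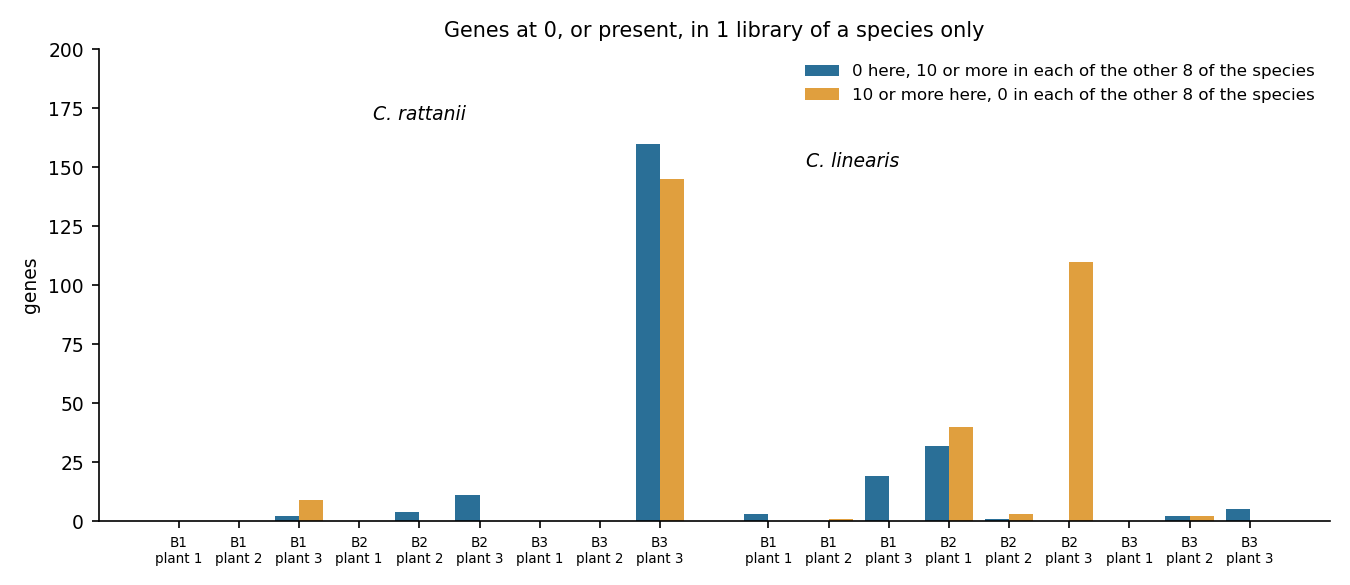
Number of genes (y axis) that were at 0 in 1 library and had at least 10 counts in each of the other 8 of its species (blue), or the reverse (orange), for each of the 9 C. rattanii libraries (left) and the 9 C. linearis libraries (right). C. rattanii B3 plant 3 has 160 and 145 such genes, and no other C. rattanii library has more than 11.

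The rule reached into that pattern. Without B3 plant 3 it would have taken 273 genes in place of 230. The 43 additional genes had at least 10 counts in each of the other 8 C. rattanii libraries and 0 in C. linearis, and 35 of them were at exactly 0 in B3 plant 3. RCORA140316 had 547, 483 and 507 counts at B1 of plants 1 to 3, 424, 606 and 610 at B2, and 601, 338 and 0 at B3. RCORA70030 had 445, 563 and 459 counts at B1, 377, 1019 and 368 at B2, and 546, 286 and 0 at B3. In both RCORA140316 and RCORA70030 the 8 other libraries had at least 286 counts, and only B3 plant 3 was empty. Without C. linearis B2 plant 1 or B2 plant 3, the rule would have taken 264 and 246 genes. These numbers were not particular to those libraries. Leaving out C. linearis B3 plant 3 also gave 264, and leaving out its B1 plant 1 or B1 plant 2 gave 246.

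Genes with reads in every C. rattanii library mostly had reads in every C. linearis library as well. Of the 21329 genes with at least 10 counts in each C. rattanii library, 20144 (94.4%) had a count in all 9 C. linearis libraries, and the 230 rattanii-only genes made up 1.08%. Between these ends the counts of genes formed a trough. There were 254 genes at 0 in 1 C. linearis library, 67 at 0 in 6 libraries, 95 at 0 in 7, 144 at 0 in 8 and 230 at 0 in all 9. The genes with reads in a single C. linearis library were mostly near the edge of the rule, since 101 of the 144 had exactly 1 count there and 33 had 2 to 9 counts. The remaining 10 had 10 or more counts, up to 214, and all 10 had them in C. linearis B2 plant 1, one of the libraries that stood apart.

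**Figure D2:**
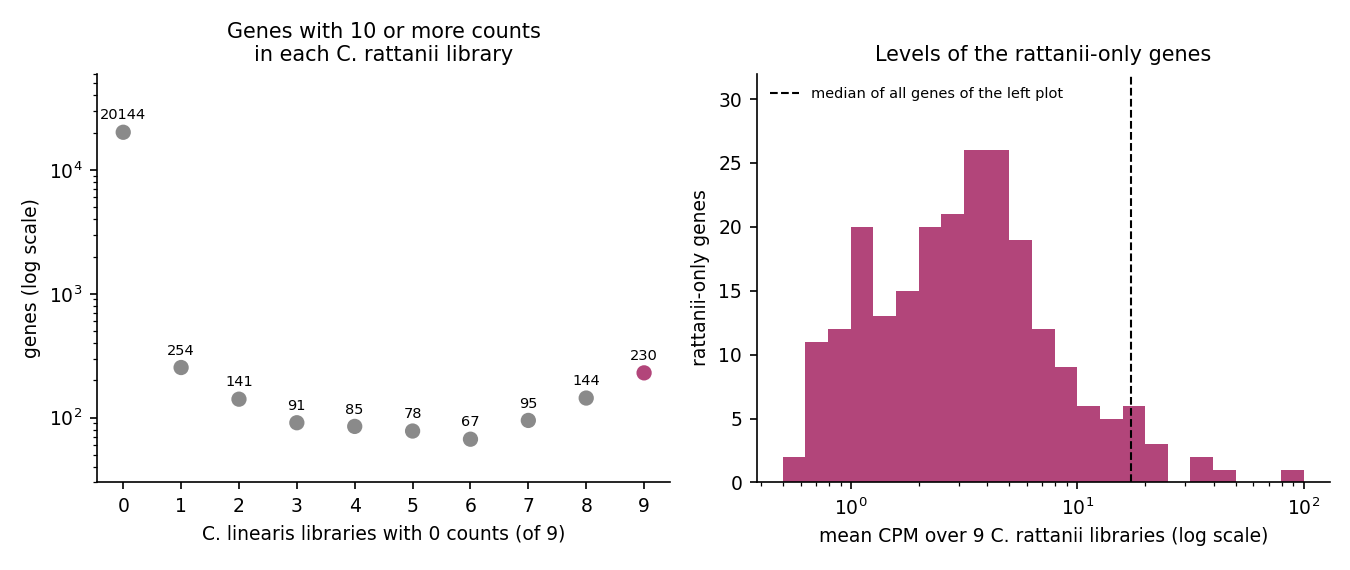
Left, number of genes with at least 10 counts in each C. rattanii library (y axis, log scale) by the number of C. linearis libraries in which they had 0 counts (x axis). The 230 rattanii-only genes are the magenta point at 9, above the 67 genes at 6. Right, number of rattanii-only genes (y axis) by mean CPM over the 9 C. rattanii libraries (x axis, log scale), with the median of all genes of the left plot, 17.3 CPM, as a dashed line.

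The same rule turned round found far fewer genes. At least 10 counts in each C. linearis library and 0 in each C. rattanii library held for 12 of 20157 genes (0.0595%), with totals of 183 to 799 counts over the 9 C. linearis libraries. RCORA137992, the one with the most reads, had 799. When any count above 0 sufficed, the order was the opposite. Reads in C. rattanii only were found for 2124 of 46127 genes (4.60%), and reads in C. linearis only for 4183 (9.07%). The difference between the 230 and the 12 thus applies to genes with steady reads in all libraries of a species. Only genes modeled in the C. rattanii genome have counts, so a gene absent from that genome could not be among the 12. How far this set the difference was not tested.

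The limit of the rule was not a natural gap. Just inside it, RCORA124280 had 23, 14 and 16 counts at B1, 15, 80 and 20 at B2 and 17, 11 and 10 at B3 in plants 1 to 3. RCORA26909 had 32, 64 and 97 counts at B1, 20, 10 and 35 at B2 and 34, 28 and 35 at B3. Just outside it, RCORA84685 and RCORA149411 had 0 counts in C. linearis and a lowest C. rattanii count of 9. On the other side of the rule, RCORA148004, with 14860 counts in C. rattanii against 1 in C. linearis, and RCORA78641, with 9364 against 1, were left out by that 1 count. Genes with a lowest C. rattanii count of 5, 6, 7, 8 and 9 and no C. linearis count numbered 11, 12, 5, 9 and 5, and those at 10, 11 and 12 numbered 4, 8 and 4.

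Most rattanii-only genes were expressed at a low level. Expression is given as CPM, the counts of a gene per 1000000 counts of a library whose size was adjusted by TMM (trimmed mean of M-values), and it is not divided by gene length, so levels of different genes are not compared per transcript. The mean CPM over the 9 C. rattanii libraries had a median of 3.17 over the 230 genes and ranged between 0.595 and 86.0. The median of the 21329 genes with at least 10 counts in each C. rattanii library was 17.3 CPM, and 10 rattanii-only genes (4.35%) lay above it. In all, 25 were under 1 CPM, 181 between 1 and 10 CPM and 24 at 10 CPM or more. In raw counts over the 9 libraries, the totals ranged between 178 and 26185, with a median of 965 against 5198 for the larger set. The share of rattanii-only genes among genes of the larger set fell with the level. It was 4.51% at 0.3 to 1 CPM, 3.39% at 1 to 3 and 2.09% at 3 to 10. At 10 to 30 CPM it was 0.314%, and above 30 CPM 0.0550%. The rule asked for 0 C. linearis counts, which a gene with few reads meets more readily. The low level is therefore not independent of the rule, and how far the rule set it was not tested.

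Because all 9 C. linearis libraries were at 0, a fold difference can only be given as a lower bound. With a floor of 3 counts over the 9 C. linearis libraries together, or 0.0113 CPM, the mean level in C. rattanii was at least 281-fold higher for the median rattanii-only gene, and this bound ranged between 52.8-fold and 7617-fold. The bound covers counting error only and restates the rule, so it carries no test.

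The 8 rattanii-only genes with the highest levels were far above the rule's minimum of 10 counts in each C. rattanii library. RCORA181456 had 73.8, 76.2 and 98.3 CPM at B1 of plants 1 to 3, 84.6, 141 and 71.8 CPM at B2, and 80.4, 67.6 and 79.9 CPM at B3. Its raw counts ran between 1714 and 5509 per C. rattanii library, against 0 in each C. linearis library, a difference of at least 7617-fold. It stood at the 89.4th percentile of genes with at least 10 counts in each C. rattanii library, and its highest value, at B2 of plant 2, exceeded all others.

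RCORA119029 had 49.4, 50.1 and 43.3 CPM at B1, 53.1, 38.6 and 56.3 CPM at B2, and 42.8, 52.3 and 53.8 CPM at B3, at least 4330-fold above the C. linearis floor. In this gene B2 of plant 2 was the lowest of the 9 libraries. RCORA104918 had 32.3, 36.5 and 47.0 CPM at B1, 25.9, 47.2 and 31.8 CPM at B2, and 36.1, 28.0 and 25.6 CPM at B3. Its 2 highest values were those of B1 plant 3 and B2 plant 2, and the stages overlapped. RCORA145875 varied least of all 230, with 20.2, 21.3 and 26.1 CPM at B1, 21.1, 22.6 and 24.1 CPM at B2, and 22.3, 20.8 and 19.2 CPM at B3, a coefficient of variation (CV) of 0.0959.

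RCORA85693, RCORA96979 and RCORA206150, with means of 22.8 ± 6.59, 20.9 ± 5.48 and 18.2 ± 3.76 CPM (SD, n = 9 libraries of 3 plants), had their highest value at B2 of plant 2. That value was 36.4 CPM in RCORA85693, where the other 8 libraries had 17.4 to 31.8 CPM. It was 33.7 CPM in RCORA96979 and 27.3 CPM in RCORA206150. RCORA62515, the third in level, is described with the plants.

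**Figure D3:**
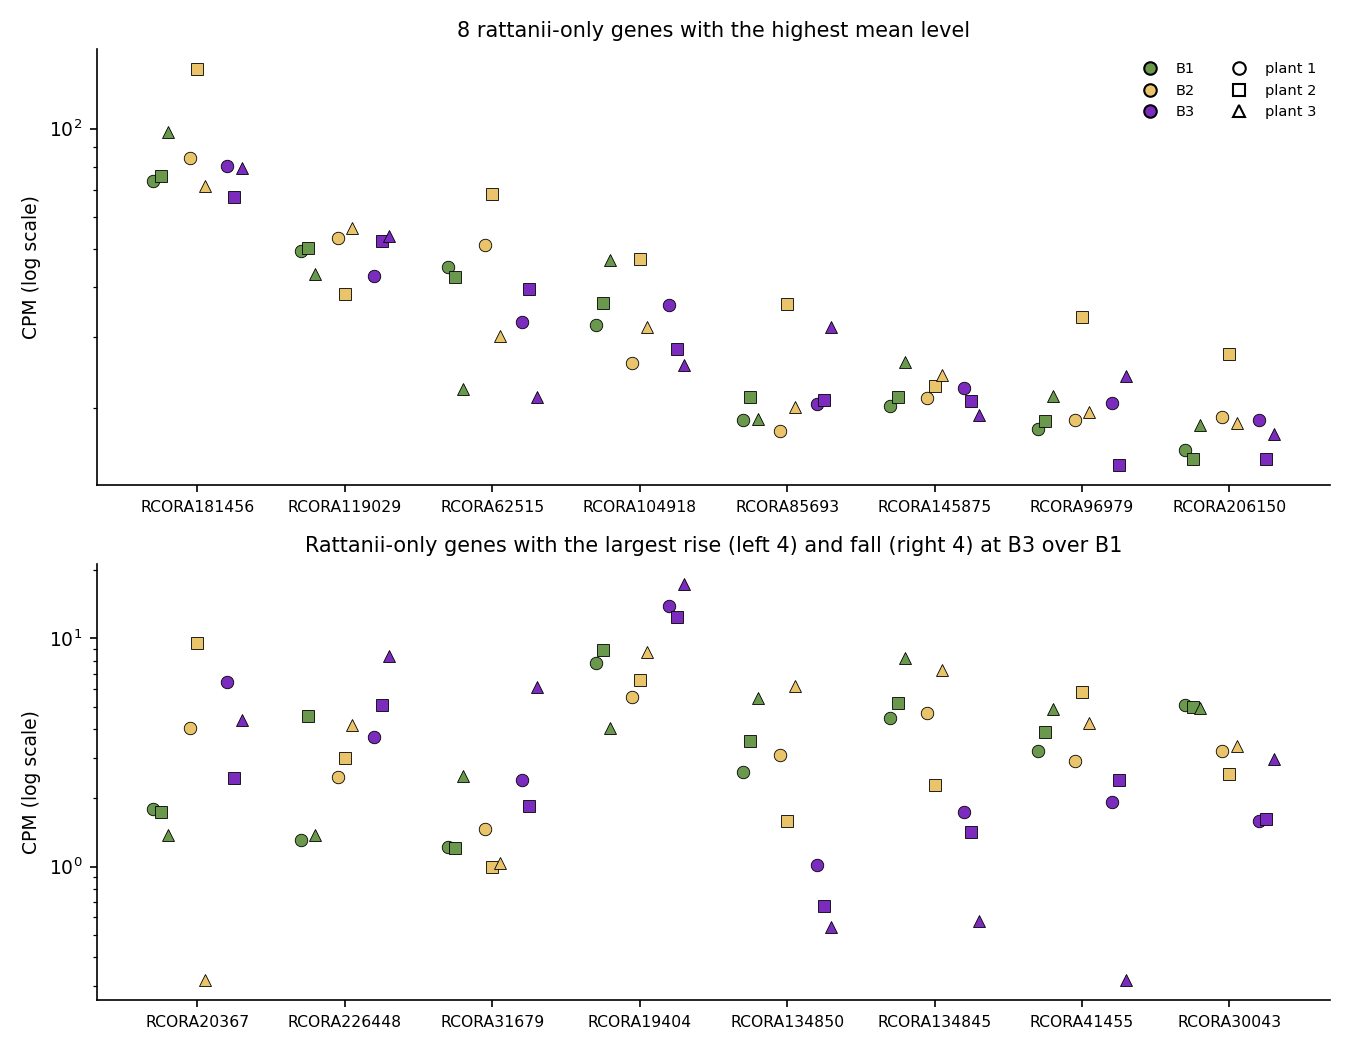
CPM (y axis, log scale) in each of the 9 C. rattanii libraries for the 8 rattanii-only genes with the highest mean level (top) and for those with the largest rise and fall at B3 over B1 of one sign in all 3 plants (bottom). Colors are bud stages and symbols are plants. RCORA181456 peaks at 141 CPM in B2 of plant 2, while RCORA134845 and RCORA134850 are lowest in the 3 B3 libraries.

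Levels of the rattanii-only genes shifted together between libraries. The rattanii-only genes took between 0.104% and 0.198% of the counts of a C. rattanii library. The 3 plants gave 0.115%, 0.120% and 0.164% at B1, 0.119%, 0.198% and 0.109% at B2, and 0.135%, 0.104% and 0.127% at B3. The summed level on TMM-scaled sizes was 1602 CPM at B2 of plant 2 and 1390 CPM at B1 of plant 3, while the remaining 7 libraries had 1016 to 1196 CPM. RCORA181456 alone, the gene with the most counts, accounted for 141 CPM of the sum at B2 of plant 2, and without it this library was still the highest, at 1461 CPM.

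The rise at B2 of plant 2 was spread over the set. In this library 185 of the 230 genes (80.4%) lay above their own median of the other 8 C. rattanii libraries, with a median difference of 0.57 on the log2 scale. Over the 21329 genes with at least 10 counts in each C. rattanii library, 50.9% did, with a median of 0.01. The median difference of the rattanii-only genes was 0.76 on raw library totals, where that of the larger set was 0.21, and 0.61 on median-of-ratios sizes. It was 0.25 at B1 of plant 3, 0.13 at B3 of plant 1, 0.05 at B3 of plant 3, and the 5 remaining libraries had medians of -0.21 to -0.06.

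Counted gene by gene, 109 of 230 rattanii-only genes (47.4%) had their highest CPM of the 9 libraries at B2 of plant 2, against 4159 of 21329 genes (19.5%). B1 of plant 3 was the highest library for 53 (23.0%), against 22.4% of the larger set. At 1 to 3 CPM, 39.8% of 83 rattanii-only genes and 22.5% of the larger set at that level peaked at B2 of plant 2. At 10 to 30 CPM, 55.0% of 20 and 21.6% did. This library also had the highest TMM factor of the 18, 1.24, and its part in the result was not tested.

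**Figure D4:**
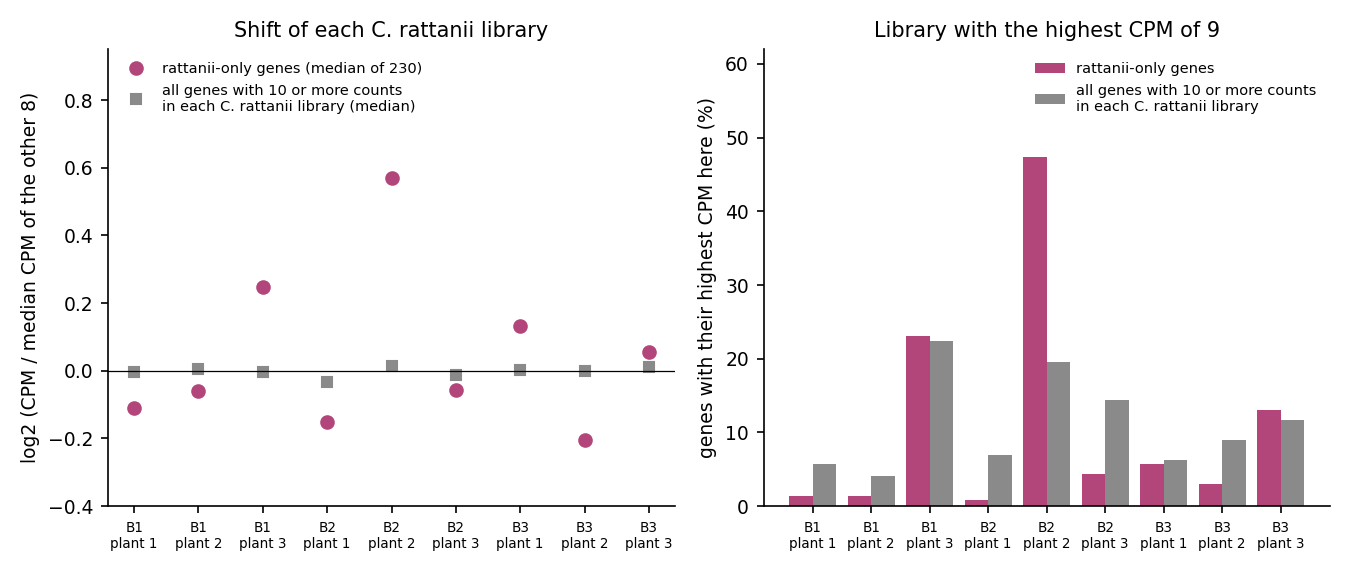
Left, median over genes of the log2 ratio of the CPM in 1 C. rattanii library to the gene's median CPM in the other 8 (y axis), for the 230 rattanii-only genes (circles) and for all 21329 genes with at least 10 counts in each C. rattanii library (squares). Right, percent of each set with its highest CPM in that library (y axis). B2 of plant 2 reaches 0.57 and 47.4% for the rattanii-only genes, against 0.01 and 19.5% for the larger set.

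The spread of a rattanii-only gene over the 9 C. rattanii libraries was close to that of genes of the larger set at its level. The CV had a median of 0.302 over the 230 genes and of 0.270 over the larger set. At 1 to 3 CPM the medians were 0.331 for rattanii-only genes and 0.389 for genes of the larger set. At 10 to 30 CPM they were 0.207 and 0.242. RCORA209386 varied most, with 1.25, 1.53 and 7.32 CPM at B1, 0.718, 1.38 and 1.73 CPM at B2, and 3.57, 1.3 and 0.576 CPM at B3 (CV 0.985). Its highest value was that of B1 plant 3 alone.

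The order of the bud stages within C. rattanii was not used by the rule and was tested. No rattanii-only gene changed between stages at a false discovery rate (FDR) of 0.01 in edgeR's quasi-likelihood test with Benjamini-Hochberg adjustment over all 27837 genes tested. The same test called 0 of those 27837 genes (0%). At an unadjusted p under 0.05, 6 of 230 rattanii-only genes (2.61%) passed, against 8.41% of all genes tested and 6.91% of the 21329 genes with at least 10 counts in each C. rattanii library. DESeq2's likelihood ratio test called 0 rattanii-only genes and 250 genes in all (0.657%), and 7 of the 230 (3.04%) had an unadjusted p under 0.05, against 8.12%. The lowest adjusted p of a rattanii-only gene in edgeR's stage test was 0.341. Without B3 plant 3, edgeR called 0 genes as well, and 4 rattanii-only genes (1.74%) had an unadjusted p under 0.05, against 5.91% of the genes then tested.

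From B1 to B3, edgeR called 0 rattanii-only genes, against 4 of 27837 genes (0.0144%), and DESeq2 called 0 of the 230. At an FDR of 0.05, chosen for DESeq2 after its values were seen, DESeq2 placed 3 of the 230 (1.3%) lower at B3, against 1.06% of all genes. At 0.05 edgeR still called 0 rattanii-only genes, and the share of all genes it called there is not given here. In edgeR 4 of the 230 (1.74%) had an unadjusted p under 0.05 for this step, against 8.95% of all genes tested. Of these, 1 was higher at B3 (0.435%, against 3.71%) and 3 were lower (1.3%, against 5.24%). For the step from B1 to B2 this count was 2 of 230 (0.87%), against 5.3%, and from B2 to B3 it was 6 of 230 (2.61%), against 6.68%. The change from B1 to B3 had the same sign in all 3 plants in 63 rattanii-only genes (27.4%), 33 higher and 30 lower at B3, against 32.7% of the genes with at least 10 counts in each C. rattanii library. Plants 1 and 2 alone had the same sign in 121 rattanii-only genes (52.6%), against 58.7%.

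The stage means of the whole set depended on single libraries. In 139 of 230 genes (60.4%) the mean CPM was higher at B2 than at B1, against 47.1% of the larger set, and in 79 (34.3%) it was higher at B3 than at B2, against 49.8%. Without B2 plant 2, left out after its values were seen, B2 exceeded B1 in 83 genes (36.1%, against 42.8%) and B3 exceeded B2 in 140 (60.9%, against 55.7%), so that both directions turned. B3 exceeded B1 in 108 genes (47.0%, against 48.2%), in 97 (42.2%, against 47.6%) without B3 plant 3 and in 143 (62.2%, against 52.2%) without B1 plant 3. The number with B3 above B2 was again 79 without B3 plant 3 (against 48.1%). The summed level of the 230 genes was 1187 ± 178 CPM at B1, 1252 ± 303 CPM at B2 and 1129 ± 98.2 CPM at B3 (SD, n = 3 plants each), and stages overlapped.

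**Figure D5:**
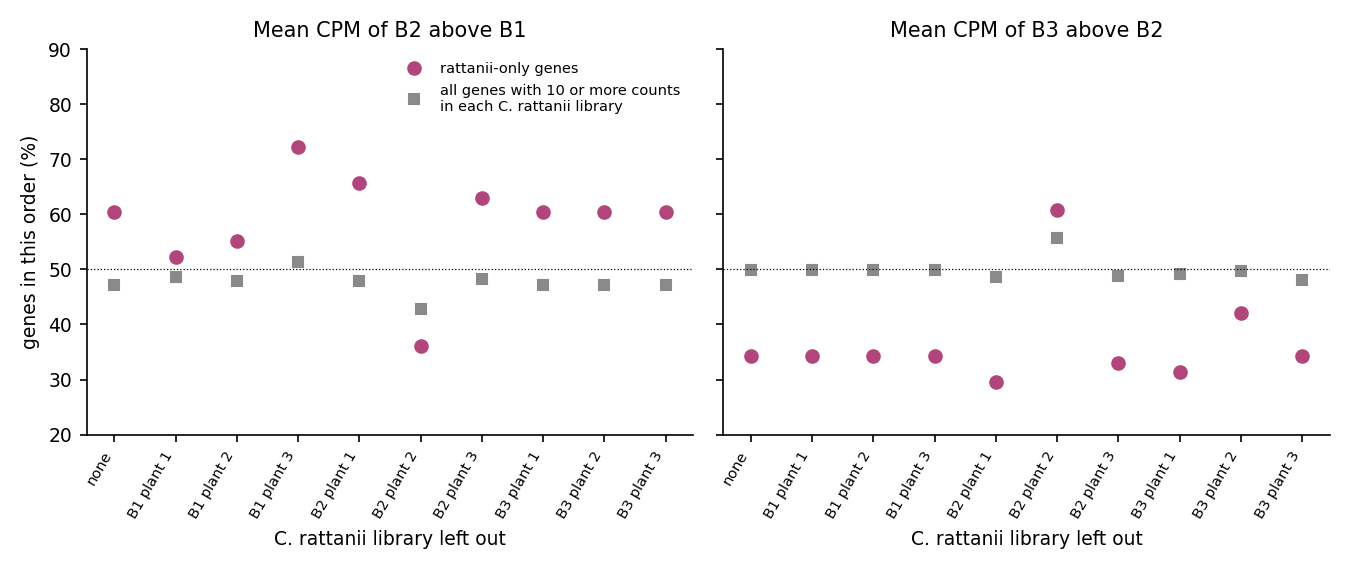
Percent of genes (y axis) with a higher mean CPM at B2 than at B1 (left) and at B3 than at B2 (right) when 1 C. rattanii library is left out (x axis), for the 230 rattanii-only genes (circles) and the 21329 genes with at least 10 counts in each C. rattanii library (squares). With B2 plant 2 left out, the rattanii-only genes go to 36.1% on the left, against 60.4% with all libraries.

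The 2 rattanii-only genes with the smallest stage p in edgeR lay side by side in the count table. RCORA134845 had 4.48, 5.23 and 8.22 CPM at B1 of plants 1 to 3, 4.73, 2.28 and 7.27 CPM at B2, and 1.74, 1.42 and 0.576 CPM at B3. All 3 B3 libraries lay below the other 6, and B3 plant 3 was the lowest. The change from B1 to B3 was -2.26 ± 0.60 (log2, SE), with an adjusted p of 0.241 in edgeR and 0.0326 in DESeq2, and -1.92 without B3 plant 3. In the next row, RCORA134850 had 2.61, 3.56 and 5.47 CPM at B1, 3.1, 1.59 and 6.18 CPM at B2, and 1.0, 0.670 and 0.544 CPM at B3. Its change was -2.37 ± 0.61 (log2, SE), with an adjusted p of 0.232 in edgeR and 0.0298 in DESeq2, and -2.19 without B3 plant 3. In both genes plant 3 was highest and plant 2 lowest at B2. Both missed the FDR of 0.01 in both tools.

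RCORA30043 declined in steps, with 5.10, 5.0 and 4.94 CPM at B1, 3.2, 2.53 and 3.38 CPM at B2, and 1.59, 1.62 and 2.97 CPM at B3. The 3 B1 libraries lay above the other 6 and differed little among themselves. The change from B1 to B3 was -1.28 ± 0.39 (log2, SE), and -1.64 without B3 plant 3. Its adjusted p was 0.325 in edgeR and 0.0296 in DESeq2, the lowest of the 230 in DESeq2. RCORA41455 had 3.2, 3.88 and 4.91 CPM at B1, 2.90, 5.81 and 4.27 CPM at B2, and 1.92, 2.41 and 0.320 CPM at B3. Here the size rested partly on B3 plant 3, since the change of -1.37 ± 0.68 (log2, SE) was -0.89 without that library. The adjusted p of this gene in edgeR was 0.633 with all libraries.

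Of the genes with the largest rise, RCORA19404 had all 3 B3 libraries above the other 6. It had 7.77, 8.91 and 4.07 CPM at B1, 5.51, 6.58 and 8.74 CPM at B2, and 13.8, 12.4 and 17.3 CPM at B3, a change of 1.07 ± 0.38 (log2, SE; adjusted p = 0.414 in edgeR and 0.139 in DESeq2), and 0.92 without B3 plant 3. In the row before it stood another rattanii-only gene, RCORA19399, with 87, 79 and 65 counts at B1, 51, 80 and 81 at B2 and 80, 74 and 52 at B3, where stages overlapped.

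RCORA226448 had 1.3, 4.56 and 1.37 CPM at B1, 2.48, 3.00 and 4.16 CPM at B2, and 3.72, 5.09 and 8.35 CPM at B3, and B1 and B3 overlapped. Its change was 1.24 ± 0.60 (log2, SE; adjusted p = 0.614 in edgeR), 0.87 without B3 plant 3 and 2.09 without B1 plant 2. RCORA31679 had 1.22, 1.21 and 2.50 CPM at B1, 1.47, 0.998 and 1.04 CPM at B2, and 2.40, 1.85 and 6.11 CPM at B3. Its change of 1.07 ± 0.59 (log2, SE; adjusted p = 0.699) was 0.37 without B3 plant 3, which held the highest value. RCORA20367 had 1.79, 1.74 and 1.37 CPM at B1, 4.04, 9.60 and 0.317 CPM at B2, and 6.47, 2.44 and 4.38 CPM at B3. Its B2 libraries spanned both the lowest and the highest value of the 9, and the change was 1.44 ± 0.94 (log2, SE; adjusted p = 0.786 in edgeR), and 1.45 without B3 plant 3.

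Differences between the 3 C. rattanii plants were tested within stages. In edgeR, with stage as a term, 0 rattanii-only genes and 0 of 24916 genes (0%) differed between plants at FDR 0.01. At an unadjusted p under 0.05 there were 3 of 230 (1.3%), against 2.51% of the genes tested. DESeq2 called 33 genes (0.0959%), of which 1 was rattanii-only, and gave 5 of the 230 (2.17%) an unadjusted p under 0.05, against 3.5%. Without B3 plant 3, edgeR again called 0 genes, and 3 rattanii-only genes, against 5.38% of the genes tested, had an unadjusted p under 0.05. Without that library DESeq2 called 223 genes (0.659%) and 0 rattanii-only genes, and 12 of the 230 (5.22%) had an unadjusted p under 0.05, against 7.23%.

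The gene that DESeq2 called was RCORA62515, with an adjusted p of 0.00607 in DESeq2, and with an unadjusted p of 0.00212 and an adjusted p of 1.00 in edgeR. With B3 plant 3 left out it was no longer called, with an adjusted p of 0.0154 in DESeq2 and an unadjusted p of 0.00718 in edgeR. It had 45, 51.2 and 32.8 CPM at B1, B2 and B3 of plant 1, 42.4, 68.7 and 39.7 CPM in plant 2, and 22.2, 30.3 and 21.3 CPM in plant 3. All 3 libraries of plant 3 lay below the other 6, and B3 plant 3 was near B1 plant 3. RCORA124804 had 0.595, 0.522 and 0.899 CPM in plant 1, 1.29, 1.38 and 0.986 CPM in plant 2, and 2.86, 1.5 and 2.91 CPM in plant 3, in which all libraries lay above the other 6 (unadjusted p = 0.0150 in edgeR, and 0.0559 without B3 plant 3). RCORA108268 had 2.44, 2.84 and 3.03 CPM in plant 1, 2.32, 6.02 and 2.48 CPM in plant 2, and 1.57, 1.39 and 1.0 CPM in plant 3, all below the other 6 (unadjusted p = 0.0484 in edgeR, and 0.143 without B3 plant 3). DESeq2's adjusted p was 0.189 for RCORA124804 and 0.783 for RCORA108268.

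Such complete separation of 1 plant was found for 13 rattanii-only genes (5.65%), against 4.85% of the larger set. On raw library totals the order of the 2 shares turned, with 6 of the 230 (2.61%) against 4.02%. With B3 plant 3 left out, where plant 3 has 2 libraries and separation is easier, 36 rattanii-only genes (15.7%) had 1 plant apart, against 17.9%. Complete separation of 1 stage was found for 18 (7.83%), against 12.6%, and without B3 plant 3 for 25 (10.9%), against 18.6%. The 3 B3 libraries were lowest in 10 rattanii-only genes (4.35%, against 2.89%) and highest in 1 (0.435%, against 2.93%). The 2 B3 libraries of plants 1 and 2, set against B1 and B2 alone, were lowest in 13 (5.65%, against 5.14%) and highest in 3 (1.3%, against 4.92%).

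Some rattanii-only genes were neighbors in the count table. In 15 places, 2 of them stood in adjacent rows, which covered 30 of the 230 genes (13.0%), and no run was longer than 2. In 14 of the 15 pairs the identifier numbers were 5 apart. How often identifiers of adjacent rows are 5 apart in the whole count table was not counted, so this spacing is not read as particular to these pairs. Of the rows next to a rattanii-only gene, 6.52% were rattanii-only themselves, against 0.499% of all rows, and 35.0% had at least 10 counts in every library of both species, against 40.7%. Neither the labels nor the methods say whether identifiers follow the order of genes along the chromosomes, and whether adjacent models are parts of 1 gene was not tested.

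In some pairs the 2 genes had a similar profile over the 9 libraries. RCORA122868 had 228, 251 and 586 counts at B1 of plants 1 to 3, 180, 489 and 166 at B2 and 256, 134 and 290 at B3. Its neighbor RCORA122877 had 99, 102 and 288 counts at B1, 81, 183 and 75 at B2 and 133, 70 and 142 at B3. Both genes had their highest values in the same 2 libraries, B1 plant 3 and B2 plant 2. Peaks there were common in the whole set, since B2 plant 2 had the highest CPM in 47.4% of rattanii-only genes and B1 plant 3 in 23.0%. Whether neighbors were more alike than other rattanii-only genes was not tested. RCORA134845 and RCORA134850, with their low B3 values, were a second pair with a similar profile. RCORA116791 and RCORA116796 were less alike. RCORA116791 had 112 counts at B1 of plant 1 and 80 at B1 of plant 3, while RCORA116796 had 15 and 31 counts there. These pairs were chosen as examples after their counts were seen.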

How the data were processed

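Per the labels and the study's methods, poly(A) RNA of whole buds was made into directional libraries. The authors mapped all reads to the genome of C. rattanii (STAR in its 2-pass mode) and summed them over gene models with featureCounts. The deposited table holds raw counts. How the counting treated strand and reads with several matches is stated neither in the labels nor in the methods text, so overlapping, antisense or near-identical genes cannot be separated. The submitters' processing notes also name FastQC 0.11.9. A pair of further library columns (2) matched no single sample and was not used.

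Rattanii-only genes had a count of at least 10 in each C. rattanii library and 0 in each C. linearis library. These genes, and the rules for naming some of them, were chosen with earlier results of these data known. The main test was edgeR 4.0.16 (R 4.3.3). filterByExpr was applied to the 6 groups, and all 230 genes passed. TMM scaling was followed by robust quasi-likelihood fits of species, stage and their interaction over all 18 libraries. F-tests of the stage effect and of each stage step within C. rattanii used Benjamini-Hochberg adjustment and the FDR of 0.01 used in the study. Plants were tested with stage + plant in the 9 C. rattanii libraries. SEs were computed from each log2 change and its F statistic. DESeq2 1.42.0 was the alternative, and genes it gave no adjusted p were left out. The edgeR tests of stage and of plant were run on simulated counts, and DESeq2 was not. A minimum of recovered changes was required for the step from B1 to B3. For plants it was required only at a set low spread of the simulated counts. How many real plant differences the test would find at the spread of these data is therefore not given.

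Genes were named by level (8 highest mean CPM), by stage change (4 largest rises and 4 largest falls from B1 to B3 with 1 sign in all plants), by the 3 smallest p for stage and for plant, by lowest and highest CV and by closeness to the limit of the rule. Other genes named were chosen after their values were seen.

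Libraries of 1 plant share that plant, so by the labels the plant number pairs libraries across stages. Across genes, deviations from stage means gave r of -0.45 to 0.63 for the 9 pairs of C. rattanii libraries from 1 plant (median -0.10). The median was 0.06 for the 18 pairs from different plants. Over the rattanii-only genes the medians were 0.009 and 0.044. By these medians, libraries with the same plant label were not more alike than libraries with different labels, and the labels were not tested. The chi-square per degree of freedom between C. rattanii libraries of a stage was 63.8 or more, so none was counted as a repeat of another.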

Additional observations from a re-analysis of the deposited data

How the results depend on the processing

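The number of rattanii-only genes followed the limits of the rule. It was 272, 183 and 123 at a minimum of 5, 20 and 50 counts in each C. rattanii library, 216 with counts scaled to the smallest library, and 557 when a total of up to 9 C. linearis counts was allowed. Leaving out 1 library gave 230 to 273 genes, with the highest value without C. rattanii B3 plant 3, and leaving out a plant gave 233 to 296. The count of rattanii-only genes called was 0 in the stage test and in all 3 steps, in each direction, under median-of-ratios scaling, no filter, DESeq2 at an FDR of 0.01, edgeR at 0.05, C. rattanii libraries alone and each leave-out (0 to 0). DESeq2 at 0.05, added after seeing the data, called 1 in the stage test (RCORA101673, adjusted p = 0.0419). The share of all genes that DESeq2 called in the stage test at 0.05 was not computed, so this 1 cannot be set against it. DESeq2 at 0.05 also called 3 lower at B3 than at B1 (1.3%, against 1.06% of all genes). With the plant as a replicate block the count of rattanii-only genes called was also 0, in the 18 libraries and in C. rattanii alone. The plant test called 1 with DESeq2, RCORA62515 (adjusted p = 0.00607), 0 with DESeq2 without B3 plant 3, and 0 in edgeR. Genes with 1 plant apart numbered 13, 6 on raw library totals and 36 without B3 plant 3. The named log2 changes from B1 to B3 kept their sign in 18 alternatives each. The share of counts at B2 of plant 2 was 0.198%, and 0.160% on TMM sizes. Leaving out B2 plant 2 moved the genes with B2 above B1 to 83 and those with B3 above B2 to 140.

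A count of 0 in 9 libraries limits reads, not gene content, and the floor of 3 counts covers counting error only. The p-values of the stage tests without a plant block measure the spread between 3 plants per species, whose libraries at different stages share a plant. Those of the plant test do not measure that spread. In it the libraries of a plant at different stages serve as its replicates, so its p-values measure the spread of plant by stage.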

Other observations

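B3 plant 3 of C. rattanii held 49 genes with at least 10 counts there and 0 counts in the other 17 libraries of both species. RCORA187307 had 458 counts in this library, RCORA39323 had 392 and RCORA40313 had 312. A further 96 genes had at least 10 counts in this library and 0 in the other 8 C. rattanii libraries, but a count in at least 1 C. linearis library. Of the 160 genes at 0 in this library with at least 10 counts in the other 8, 19 had at least 10 counts in each C. linearis library. Another 35 of the 160 had 0 counts in each C. linearis library. Among these 35, RCORA236537 had 210, 234 and 222 counts at B1, 320, 259 and 21 at B2 and 294, 254 and 0 at B3. In this gene B2 plant 3 was low as well.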
